A study of Homo sapiens with 24 samples.

Results

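The genes that encode the semaphorins, the plexins and the neuropilins were followed in the RNA of 2 metastatic kidney cancer cell lines that carried RNAi constructs against PAX8 or a non-targeting guide. The members were found by their symbols, as every gene named SEMA3 to SEMA7 with a letter from A to G, every plexin of classes A to D, NRP1 and NRP2. The rule uses no measured value, but it was chosen with earlier results of these data known. There were 31 of them among the 26475 genes of the files, which made up 20 semaphorins, 9 plexins and 2 neuropilins.

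Semaphorins are ligands that were first known for steering growing axons and that also guide blood vessels, immune cells and epithelial cells. Those of class 3 are secreted and mostly bind a neuropilin, NRP1 or NRP2, which holds them on a plexin of class A or D, whereas those of classes 4 to 7 sit in the membrane or on a lipid anchor and mostly bind plexins directly. Plexins carry a GAP domain for small GTPases inside the cell, through which they loosen adhesion and the cytoskeleton. Neuropilins also bind VEGF, and in clear cell renal cell carcinoma (ccRCC), where the loss of VHL stabilises hypoxia-inducible factors and drives VEGF, several semaphorin genes lie on the arm of chromosome 3 that is most often lost.

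The lines were 786-M1A and OS-LM1, metastatic derivatives of the VHL-mutant ccRCC lines 786-O and OS-RC2 that carry a luciferase transgene, grown in RPMI with serum. PAX8 is a renal lineage transcription factor on which ccRCC cells depend, and the study asked which genes need it. Each line had 4 libraries with shPAX8-1, 4 with shPAX8-2 and 4 with sgNTC18, 24 in all. sgNTC18 is a non-targeting guide RNA and not an RNAi construct, and libraries of the study's RNAi control were not analysed here. A difference between shPAX8 and sgNTC18 libraries therefore holds the type of construct and any difference between experiments, which cannot be told apart from PAX8 depletion. Nothing in the labels says that the 4 replicates came from separate cultures, so p-values measure only the spread between these samples, which may be technical. These are bulk measurements, in which fewer cells of one kind and less RNA per cell cannot be told apart.

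The guides of both RNAi constructs are shown because every comparison rests on them and because a guide can also act through its seed, bases 2 to 8, which is in capitals.
shPAX8-1: tGTGAGTCaatgcttagtcggc
shPAX8-2: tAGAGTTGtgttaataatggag
Bases 2 to 22 of shPAX8-1 paired with chr2:113241691-113241711 of hg38, on the minus strand, in PAX8 sequence that 10 of its 14 annotated transcripts hold and that is coding in some of them. Those of shPAX8-2 paired with chr2:113218123-113218143 on the same strand, in untranslated sequence near the 3′ end that 7 of the 14 transcripts hold. Bases 2 to 18 of either guide had no full match in a transcript of any of the 31 members. Shorter seed matches were not searched.

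Library depth, as the sum of estimated counts, ran from 11634419 to 52059375, and its median was 18200166 with shPAX8 and 32029482.5 with sgNTC18. PAX8 was 18.2-fold lower with shPAX8-1 and 8.04-fold lower with shPAX8-2 than with sgNTC18 in 786-M1A, and 3.32-fold and 3.27-fold lower in OS-LM1, with no overlap between libraries. Of 7 renal and ccRCC markers, 6 or 7 reached 1 TPM in every group, with CA9 at 0 in 786-M1A cells with sgNTC18. None of the 6 endothelial markers reached 1 TPM in any group (summed level 0.11 to 1.23 TPM over the libraries). Summed neuronal markers ran from 1.39 to 15.7 TPM, higher in the shPAX8 groups, with STMN2 at 0 throughout. That rise lay mostly in SNAP25 and RBFOX3 in 786-M1A and mostly in SNAP25 in OS-LM1. SYP in both lines and RBFOX3 in OS-LM1 were lower with both constructs than with sgNTC18, each under 1 TPM. So was the mean of GAP43 in 786-M1A, with overlap between libraries. Leukocyte markers, nearly all CD68, ran from 75.1 to 369 TPM with CD3E at 0. Fibroblast markers summed to 62.5 to 275 TPM in 786-M1A, nearly all PDGFRB, and to 4.78 to 59.7 TPM in OS-LM1, mostly COL1A1. What these lists contributed to the results was not tested. In 786-M1A with shPAX8-1, replicates 1 and 2 stood apart from replicates 3 and 4, with a chi-square per gene of 42.7 to 73.8 between these pairs and of 3.61 and 13.6 within them, so changes of call without either pair are given for the comparisons on that group. Single pairs of libraries in OS-LM1 with shPAX8-2 had values as high, replicates 3 and 4 at 88.4 and replicates 2 and 3 at 58.2, but did not split into close pairs. This chi-square grows with depth, and replicate 3 of that group was the deepest library, so the values do not rank the groups by distance.

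Levels of different genes were compared as TPM, which is per length of transcript. SEMA4B, a membrane ligand, was the most abundant member in 5 of the 6 groups, with 410.2 ± 23.5 (SD, n = 4) TPM in 786-M1A and 243 ± 14.3 TPM in OS-LM1 with sgNTC18. In 786-M1A with shPAX8-1 it stood level with NRP2, at 197 ± 50.2 against 201 ± 19.3 TPM, which differed by less than their spread. PLXNB2 was the most abundant plexin in all 6 groups, with 162 ± 23.6 TPM in 786-M1A and 113 ± 10.4 TPM in OS-LM1 with sgNTC18. PLXNA3 came close to it in 786-M1A with RNAi, at 42.8 ± 15.5 against 46.5 ± 16.5 TPM with shPAX8-1 and 103 ± 22.8 against 106 ± 11.2 TPM with shPAX8-2, which differed by less than their spread. Between 10 and 16 of the 31 members reached 10 TPM in a group, and between 6 and 9 stayed under 1 TPM. PLXNA4, SEMA3D and SEMA3G had at most 10, 3 and 4 counts in any library and did not pass the filter on low counts, which left 18 semaphorins, 8 plexins and 2 neuropilins for the tests. The heat map of TPM shows the semaphorins as the group with the widest range of levels.

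**Figure D1:**
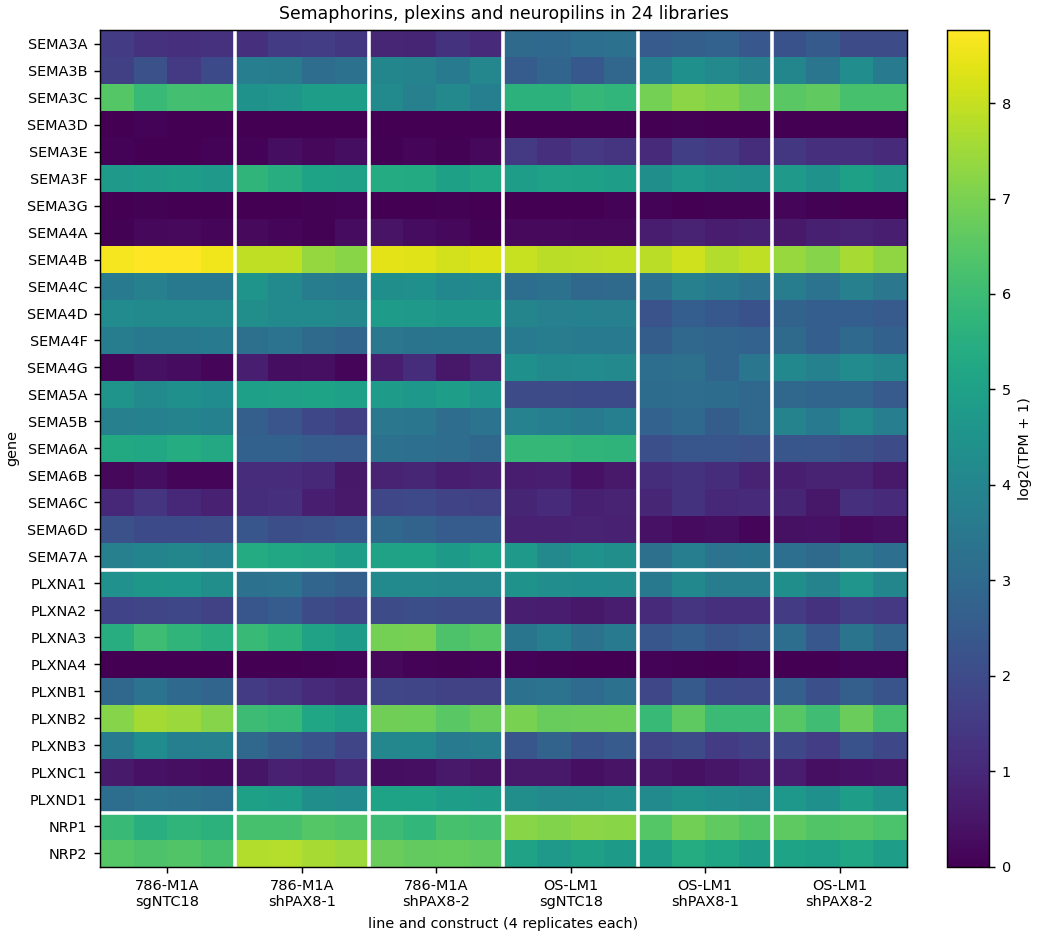
Level of the 31 members in each of the 24 libraries as log2(TPM + 1), with genes in rows (semaphorins, plexins, neuropilins) and the 4 replicates of each line and construct in columns. SEMA4B, PLXNB2, NRP1 and NRP2 are bright in every group, SEMA3D, SEMA3G and PLXNA4 are dark in every group, and SEMA6A is bright only in the sgNTC18 columns.

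The difference between the RNAi constructs stays within the shPAX8 libraries. In 786-M1A, where shPAX8-1 left less PAX8 than shPAX8-2 (2.26-fold), 6 of the 28 members were higher and 14 lower with shPAX8-1, and 6 of the 14 were plexins. Of all genes tested, 48.1% were called, 24.9% higher and 23.2% lower. The median log2 fold change of the members was -0.40 and that of the 8 plexins -0.996, against -0.019 over all genes. After the trend with transcript GC content, described next, was taken out of each library, 9 members were higher and 12 lower, and the medians were 0.009 for the members and -0.50 for the plexins. In OS-LM1, where PAX8 did not differ detectably between the constructs (log2 fold change -0.021 ± 0.14 SE), 4 members were higher and 8 lower, against 23.1% of all genes called (11.4% higher and 11.7% lower). There 5 of the 8 plexins were lower and none higher, and without the GC trend 6 members were higher and 9 lower.

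Transcript GC content moved with this comparison. Over 14083 genes the log2 fold change between the constructs correlated with GC content at a Spearman rho of -0.530 in 786-M1A and -0.193 in OS-LM1, across genes, which are not independent replicates. The tested members had a median GC content of 58.1% against 47.9% over all those genes. Many of the members' values that follow are therefore set beside those obtained after each library's trend with GC content was taken out, as the plot of construct differences shows. With the trend removed, 16 of the 20 calls in 786-M1A and 12 of the 12 in OS-LM1 were kept. Whether the trend is technical was not tested.

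SEMA5B, a membrane semaphorin of class 5, was lower with shPAX8-1 in both lines. In 786-M1A the 4 libraries with shPAX8-1 had 14.3, 10.2, 7.34 and 6.08 CPM (counts scaled to the TMM library size), and those with shPAX8-2 had 26.6, 27.03, 21.1 and 24.9 CPM. In OS-LM1 they had 15.8, 16.3, 12.8 and 18.2 CPM against 35.6, 29.4, 45.4 and 35.2 CPM. The groups did not overlap in either line, and the lowest values were those of replicates 3 and 4 in 786-M1A. The fold change was 2.62-fold in 786-M1A (log2 fold change -1.39 ± 0.18 SE, edgeR adjusted p = 9.11e-07) and 2.31-fold in OS-LM1 (log2 fold change -1.21 ± 0.17 SE, edgeR adjusted p = 8.18e-06). With the GC trend removed the log2 values were -0.92 and -1.08, both still called. Without replicates 1 and 2 of 786-M1A shPAX8-1 the value was -1.91 and without replicates 3 and 4 it was -1.02, both called.

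The RefSeq promoters of SEMA5B, PLXNB1, SEMA3B and SEMA3C are shown, in GRCh38.p14 and on the strand of the gene, as examples of members that moved one way in both lines (SEMA5B with shPAX8-1, PLXNB1 and SEMA3B against sgNTC18) or in opposite ways (SEMA3C against sgNTC18). The table lists more than 1 start for each of them, and the stretch shown is the 250 bases before the start listed first, which was not chosen by use in these cells. Capitals mark ACGTG or GCGTG on either strand, the core letters of a hypoxia response element, since PAX8 was studied together with HIF2A.
SEMA5B: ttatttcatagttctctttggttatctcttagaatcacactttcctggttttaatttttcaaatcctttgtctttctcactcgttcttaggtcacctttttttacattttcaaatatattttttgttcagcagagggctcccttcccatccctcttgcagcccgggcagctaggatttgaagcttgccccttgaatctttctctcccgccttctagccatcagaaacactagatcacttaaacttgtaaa
PLXNB1: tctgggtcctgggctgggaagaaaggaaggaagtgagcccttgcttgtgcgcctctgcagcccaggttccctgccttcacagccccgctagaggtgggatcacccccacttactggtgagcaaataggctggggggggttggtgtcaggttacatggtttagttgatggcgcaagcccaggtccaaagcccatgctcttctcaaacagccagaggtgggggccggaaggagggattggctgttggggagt
SEMA3B: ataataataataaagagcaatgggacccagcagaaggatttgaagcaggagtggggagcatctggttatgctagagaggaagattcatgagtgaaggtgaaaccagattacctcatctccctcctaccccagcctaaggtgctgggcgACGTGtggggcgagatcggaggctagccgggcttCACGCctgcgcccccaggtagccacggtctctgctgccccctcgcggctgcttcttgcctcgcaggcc
SEMA3C: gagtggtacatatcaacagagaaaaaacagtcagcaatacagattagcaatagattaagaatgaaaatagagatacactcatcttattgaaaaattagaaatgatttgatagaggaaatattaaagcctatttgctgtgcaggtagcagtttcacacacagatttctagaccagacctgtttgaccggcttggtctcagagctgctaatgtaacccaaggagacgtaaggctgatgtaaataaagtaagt
They lie at chr3:123028606-123028855 on the minus strand, chr3:48430087-48430336 on the minus strand, chr3:50272869-50273118 on the plus strand and chr7:80922390-80922639 on the minus strand. The SEMA3B stretch lies inside the span of the gene's transcripts, chr3:50260226-50277546, and that of PLXNB1 overlaps the end of its span, chr3:48403854-48430310. Of the 27 members with a promoter in the table, 7 (25.9%) held one of the letter runs, against 43.1% of the 27305 genes with a promoter there, each by the start listed first. SEMA3B had 2 matches and the other 3 had none. A match is a description of the letters and not a site of binding. The promoters differed in base composition, with a GC content of 39.2% at SEMA5B and 36.4% at SEMA3C against 59.6% at PLXNB1 and 57.6% at SEMA3B. By RefSeq coordinates 7 of the 31 members lie on chromosome 3 (PLXNA1, PLXNB1, PLXND1, SEMA3B, SEMA3F, SEMA3G and SEMA5B) and 5 on chromosome 7 (PLXNA4, SEMA3A, SEMA3C, SEMA3D and SEMA3E).

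Among the secreted ligands, SEMA3C and SEMA3A were higher with shPAX8-1 in both lines. SEMA3C, which signals through neuropilins and PLXND1, had 64.1, 67.1, 85.4 and 89.9 CPM with shPAX8-1 and 49.7, 40.5, 50.2 and 39.5 CPM with shPAX8-2 in 786-M1A. In OS-LM1 it had 377, 396, 386 and 339.8 CPM with shPAX8-1 and 254, 293, 226 and 234 CPM with shPAX8-2. Neither pair of groups overlapped, and the differences were 1.704-fold (log2 fold change 0.77 ± 0.12 SE, edgeR adjusted p = 1.06e-05) and 1.49-fold (log2 fold change 0.58 ± 0.11 SE, edgeR adjusted p = 5.27e-04). With the GC trend removed the log2 values were 0.28 and 0.49, both called, the first well under the value on the counts as deposited. SEMA3A, the collapsing factor of sensory axons, had 4.34, 6.08, 6.68 and 5.800 CPM with shPAX8-1 and 2.96, 2.91, 4.81 and 3.73 CPM with shPAX8-2 in 786-M1A. In OS-LM1 it had 15.8, 15.3, 17.9 and 14.3 CPM against 11.1, 15.3, 10.2 and 10.6 CPM, and the groups overlapped in both lines. SEMA3A differed by 0.69 in 786-M1A and 0.43 in OS-LM1 on the log2 scale, and with the trend removed the first was no longer called (0.20). Its call in OS-LM1 was lost without any of shPAX8-1 replicates 1, 2 and 3 or shPAX8-2 replicates 1, 3 and 4, and its call in 786-M1A without shPAX8-1 replicates 3 and 4 together (0.57). SEMA5A, a membrane ligand, was also called higher in both lines, but by only 0.26 and 0.27, and lost the first call with the trend removed (0.13) and without shPAX8-1 replicate 3, shPAX8-1 replicates 3 and 4 together or shPAX8-2 replicate 4. The second was lost without any of shPAX8-1 replicates 1 and 4 and shPAX8-2 replicate 4.

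Among the membrane ligands, SEMA4D and SEMA4G were lower with shPAX8-1 in both lines, SEMA6A, SEMA6C and SEMA6D were lower in 786-M1A, and SEMA4B changed in opposite directions. SEMA4D, the ligand of PLXNB1, had 51.2, 44.9, 44.5 and 43.6 CPM with shPAX8-1 and 72.7, 70.2, 64.1 and 66.6 CPM with shPAX8-2 in 786-M1A, a difference of 1.49-fold (log2 fold change -0.57 ± 0.085 SE, edgeR adjusted p = 7.24e-06). SEMA4G was at most 2.75 CPM in 786-M1A and had 18.6, 16.1, 12.5 and 21.8 CPM with shPAX8-1 and 32.3, 29.2, 40.1 and 36.2 CPM with shPAX8-2 in OS-LM1, a difference of 2.001-fold (log2 fold change -1.001 ± 0.21 SE, edgeR adjusted p = 7.70e-04). SEMA6C fell from 5.86, 6.64, 5.64 and 5.33 CPM with shPAX8-2 to 2.77, 2.97, 1.505 and 1.22 CPM with shPAX8-1 in 786-M1A (log2 fold change -1.46 ± 0.27 SE, edgeR adjusted p = 1.01e-04). All 3 stayed called in 786-M1A with the trend removed, at -0.37, -1.04 and -0.95. SEMA4G was not called there without shPAX8-1 replicates 3 and 4 (-0.97), and its value was -2.17 without shPAX8-1 replicate 1, the highest of 1.46, 0.471, 0.482 and 0.276 CPM (1.71, 2.75, 0.995 and 1.799 CPM with shPAX8-2). SEMA4B, at 531, 515, 357 and 334 CPM with shPAX8-1 and 725, 735, 629 and 708 CPM with shPAX8-2, was lower in 786-M1A (log2 fold change -0.69 ± 0.13 SE, edgeR adjusted p = 7.98e-05). In OS-LM1 it was higher, with 516, 534, 447 and 553 CPM against 345, 314, 440.4 and 371 CPM (log2 fold change 0.48 ± 0.13 SE, edgeR adjusted p = 0.00611), and both directions held with the trend removed (-0.20 and 0.60).

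Of the plexins, PLXNA1, PLXNA3, PLXNB1, PLXNB2, PLXNB3 and PLXND1 were lower with shPAX8-1 in 786-M1A. PLXNB3, a receptor of SEMA5A, changed most, from 56.2, 60.8, 40.9 and 46.1 CPM with shPAX8-2 to 24.8, 17.8, 12.9 and 10.1 CPM with shPAX8-1 (log2 fold change -1.64 ± 0.22 SE, edgeR adjusted p = 2.04e-06). PLXNA3 had 241, 193, 124 and 116 CPM with shPAX8-1 and 466, 503, 315 and 353 CPM with shPAX8-2 (log2 fold change -1.28 ± 0.22 SE, edgeR adjusted p = 4.20e-05). PLXNB2, a receptor of class 4 semaphorins, had 234, 209, 128 and 116 CPM with shPAX8-1 and 422, 431, 339 and 398 CPM with shPAX8-2 (log2 fold change -1.21 ± 0.18 SE, edgeR adjusted p = 6.93e-06). In each of these, replicates 3 and 4 with shPAX8-1 were lower than replicates 1 and 2, and no library with shPAX8-1 reached the range of shPAX8-2. PLXNA1, a partner of the neuropilins, showed the same order, with 47.5, 47.6, 32.6 and 29.7 CPM against 88.6, 89.9, 82.2 and 85.3 CPM (log2 fold change -1.14 ± 0.15 SE, edgeR adjusted p = 9.30e-07). With the GC trend removed, PLXNB3, PLXNA3, PLXNB2, PLXNA1 and PLXNB1 stayed called, at -1.10, -0.91, -0.71, -0.63 and -0.36. PLXND1, the receptor of SEMA3E, turned from -0.37 to 0.15 and was no longer called, and its libraries overlapped between the constructs. Without replicates 3 and 4 with shPAX8-1 the value of PLXND1 was -0.085 and that of PLXNB1 was -0.53, neither called, while PLXNA1, PLXNA3, PLXNB2 and PLXNB3 stayed called. The PLXND1 call was also lost without any of shPAX8-1 replicates 3 and 4 and shPAX8-2 replicates 1 and 2.

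In OS-LM1 the plexins differed less between the constructs, and PLXNA1, PLXNA2, PLXNA3, PLXNB1 and PLXND1 were lower with shPAX8-1, with values of -0.55, -0.54, -0.74, -0.54 and -0.42 on the log2 scale. PLXNA1 had 58.1, 74.3, 61.3 and 66.1 CPM with shPAX8-1 and 98.2, 75.04, 122 and 85.7 CPM with shPAX8-2, without overlap. PLXNA3 had 16.4, 17.6, 14.5 and 18.4 CPM against 29.6, 16.8, 37.7 and 26.5 CPM, and one library with shPAX8-2 lay among those with shPAX8-1. PLXNB2 and PLXNB3, not called, had 227, 305, 217 and 239.8 CPM against 306, 248.9, 405 and 287 CPM and 9.57, 9.95, 6.74 and 8.58 CPM against 9.59, 7.46, 13.9 and 10.8 CPM, with overlap. All 5 stayed called with the GC trend removed. Of these calls, 3 hung on single libraries. That of PLXNA3 was lost without shPAX8-1 or shPAX8-2 replicate 3, that of PLXND1 without shPAX8-1 replicate 1 or shPAX8-2 replicate 3, and that of PLXNB1 without any of shPAX8-1 replicates 1, 3 and 4 or shPAX8-2 replicates 1 and 3.

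NRP2, the co-receptor that prefers SEMA3F and VEGF-C, differed between the constructs in 786-M1A and not detectably in OS-LM1. In 786-M1A it had 659, 651, 641 and 621 CPM with shPAX8-1 and 297, 295, 305 and 294 CPM with shPAX8-2, a difference of 2.16-fold (log2 fold change 1.11 ± 0.086 SE, edgeR adjusted p = 1.98e-10). The groups were far apart, and replicates 1 and 2 lay close to replicates 3 and 4. In OS-LM1 it had 89.6, 113, 104 and 95.01 CPM against 92.3, 85.3, 105 and 91.9 CPM, with overlap (log2 fold change 0.098 ± 0.086 SE, edgeR adjusted p = 0.457). The difference between the lines passed the test itself (log2 fold change -1.01 ± 0.12 SE, edgeR adjusted p = 1.10e-06), and the 786-M1A value was 1.21 with the GC trend removed. NRP1 was called in 786-M1A alone (0.41), but its line difference of -0.26 was not (adjusted p = 0.183, edgeR), so the lines were not shown to differ for NRP1. The 786-M1A call of NRP1 was also lost without shPAX8-1 replicates 3 and 4 (0.25).

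Over the 28 members, 8 differed between the lines in their response to the construct, 6 upward and 2 downward in OS-LM1 relative to 786-M1A, against 27.2% of all genes (12.7% upward and 14.5% downward). The share of members, 28.6%, was close to that background, and with the GC trend removed 5 were upward and 5 downward. Those with the largest values were SEMA6C at 1.60, PLXNB3 at 1.35 and SEMA4B at 1.17. The others were NRP2, PLXNA1, PLXNA2, PLXNB2 and SEMA6A. Without replicates 1 and 2 of 786-M1A shPAX8-1, 15 members passed and PLXNA2 did not (-0.37). Without replicates 3 and 4 the calls of PLXNA1 (0.31) and PLXNB2 (0.51) were lost. PLXNA1 lost its call without any of 8 single libraries, namely 786-M1A shPAX8-1 replicates 3 and 4, 786-M1A shPAX8-2 replicates 1 and 2, OS-LM1 shPAX8-1 replicates 2 and 4 and OS-LM1 shPAX8-2 replicates 2 and 4. In both lines 11 members were called between the constructs, 10 in the same direction. Of all genes, 2040 were called in both lines, and 1614 of these in the same direction.

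**Figure D2:**
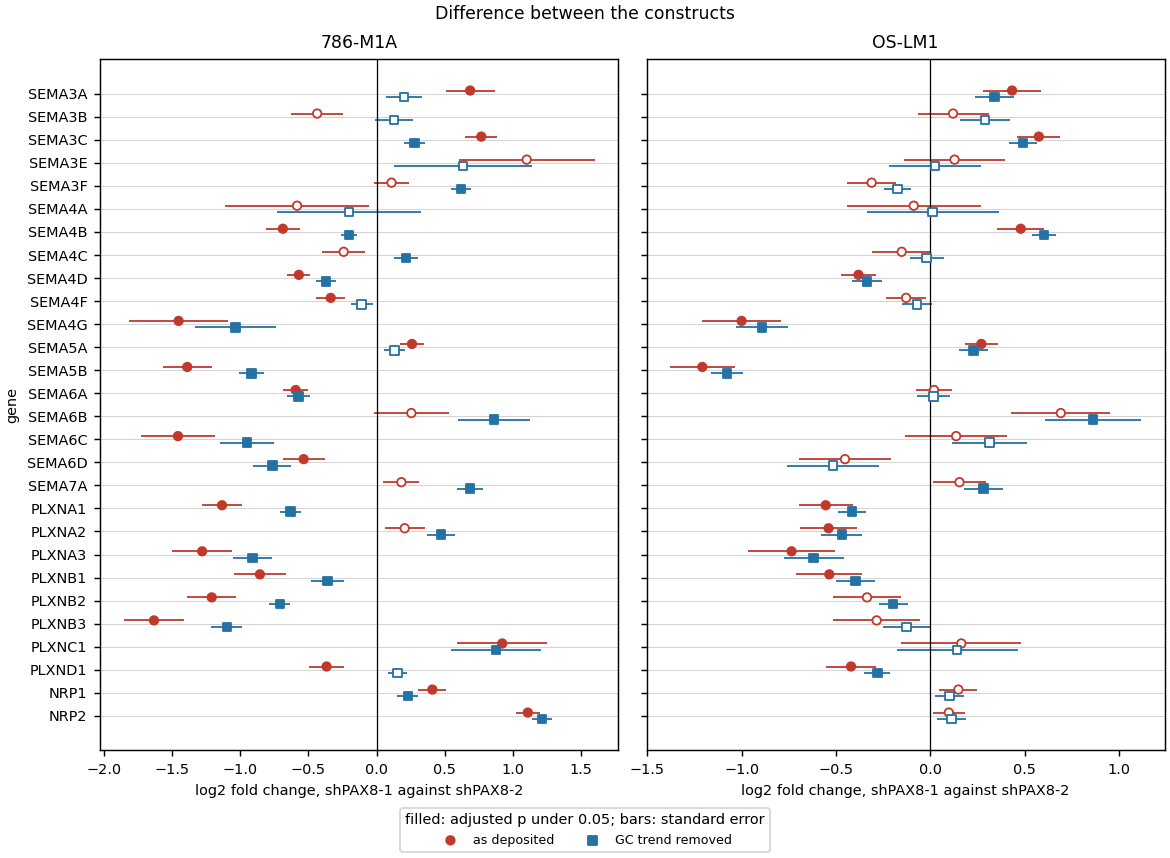
Log2 fold change of each tested member between shPAX8-1 and shPAX8-2 in 786-M1A (left) and OS-LM1 (right), on the counts as deposited (circles) and after removal of the GC trend (squares), with standard errors. Most plexins lie to the left of 0 in 786-M1A and move toward 0 when the trend is removed, whereas NRP2 stays far to the right in 786-M1A and SEMA5B far to the left in both lines.

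**Figure D3:**
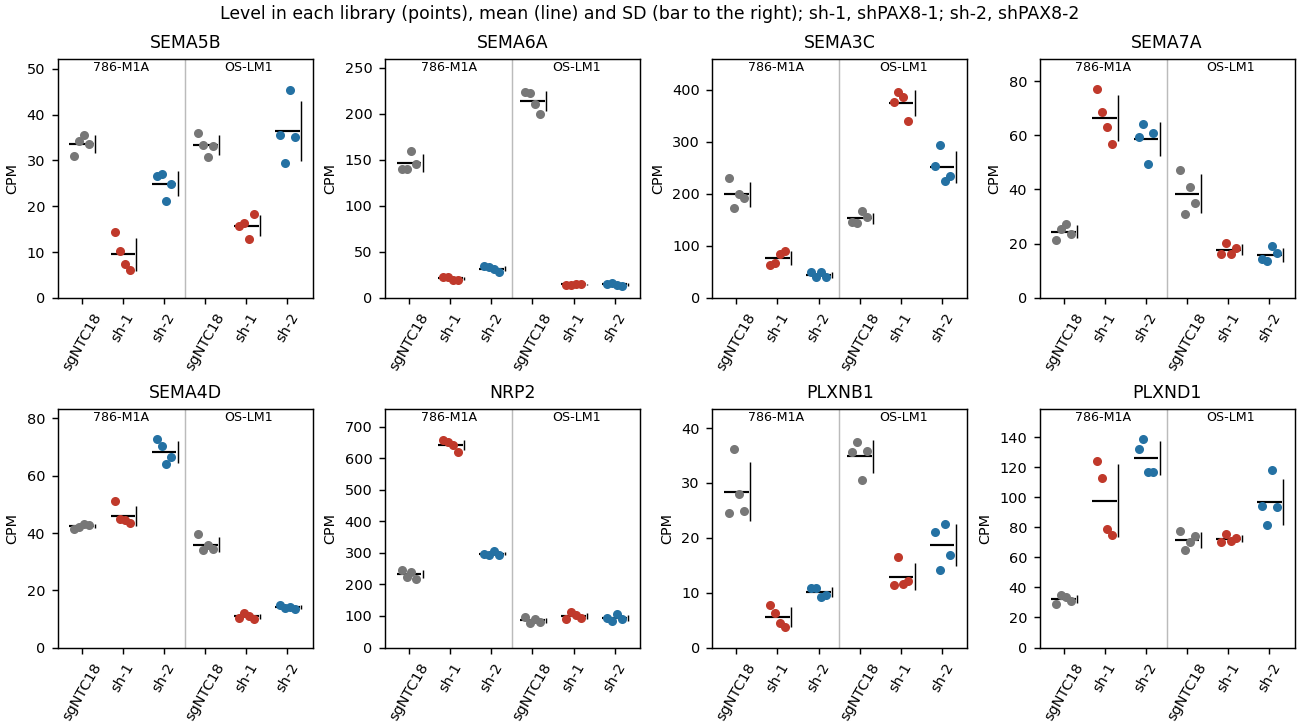
Level in CPM of 8 members in each library, with the mean as a line and the SD as a bar, in 786-M1A (left of each panel) and OS-LM1 (right). NRP2 stands highest in all 4 libraries of 786-M1A with shPAX8-1, SEMA6A is high only with sgNTC18, and SEMA3C and SEMA7A move in opposite directions from sgNTC18 in the 2 lines.

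The lines were compared in the libraries with sgNTC18 and, apart from them, in those with shPAX8. With sgNTC18, 9 members were higher and 11 lower in OS-LM1 than in 786-M1A, against 63% of all genes called (32% higher and 31% lower). With shPAX8, 9 were higher and 15 lower, against 83.1% (41.7% higher and 41.5% lower). The members' shares, 71.4% and 85.7%, were near these backgrounds, so the counts do not set the family apart from other genes. The majority turned when the GC trend was removed, to 14 higher and 9 lower with sgNTC18 and 14 higher and 12 lower with shPAX8. Without replicates 1 and 2 of 786-M1A shPAX8-1, SEMA6C lost its call with shPAX8 (-0.31). The largest differences lay with single ligands.

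Among the secreted ligands, SEMA3E and SEMA3A were higher in OS-LM1. SEMA3E, which binds PLXND1 without a neuropilin, had 6.93, 4.92, 6.65 and 5.78 CPM in OS-LM1 and at most 0.220 CPM in 786-M1A with sgNTC18 (log2 fold change 5.67 ± 0.42 SE, edgeR adjusted p = 4.76e-12). With shPAX8 it was also higher in OS-LM1 (log2 fold change 3.60 ± 0.26 SE, edgeR adjusted p = 7.30e-13), where it had 4.32, 6.98, 6.46 and 4.82 CPM with shPAX8-1 and 5.95, 5.01, 5.28 and 4.48 CPM with shPAX8-2, against at most 0.994 CPM in 786-M1A. The fold of SEMA3E rests on a few counts per library in 786-M1A, where 1 library with sgNTC18 had none. SEMA3A had 22.9, 22.8, 26.8 and 28.6 CPM in OS-LM1 against 5.55, 4.201, 4.21 and 4.35 CPM in 786-M1A with sgNTC18, a difference of 5.52-fold (log2 fold change 2.46 ± 0.16 SE, edgeR adjusted p = 4.14e-13). SEMA3C stood 1.301-fold lower in OS-LM1 with sgNTC18 and 5.23-fold higher with shPAX8 (log2 fold change 2.39 ± 0.086 SE, edgeR adjusted p = 2.20e-19), so its order of the lines turned.

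Among the membrane ligands, SEMA4G marked OS-LM1, and SEMA5A and SEMA6D marked 786-M1A. SEMA4G had 44.3, 36.997, 38.9 and 35.5 CPM in OS-LM1 and 0.246, 0.553, 0.421 and 0.220 CPM in 786-M1A with sgNTC18 (log2 fold change 6.76 ± 0.31 SE, edgeR adjusted p = 1.96e-16), a fold that rests on 4.84 to 13.2 counts per library in 786-M1A, and its libraries with shPAX8 also did not overlap between the lines. SEMA5A, whose thrombospondin repeats can attract or repel axons, had 20.7, 21.1, 19.8 and 19.8 CPM in OS-LM1 against 136, 112, 131 and 118 CPM in 786-M1A with sgNTC18, 6.11-fold lower (log2 fold change -2.61 ± 0.093 SE, edgeR adjusted p = 8.87e-19). SEMA6D, a ligand of PLXNA1, had 2.54, 2.61, 2.84 and 2.59 CPM against 10.5, 9.67, 9.22 and 9.88 CPM with sgNTC18, 3.71-fold lower (log2 fold change -1.89 ± 0.16 SE, edgeR adjusted p = 1.29e-10). With shPAX8 SEMA6D had 14.01, 11.3, 12.04 and 14.7 CPM and 21.96, 20.3, 16.7 and 16.4 CPM in 786-M1A, shPAX8-1 first, and 1.02, 0.582, 0.843 and 0.379 CPM and 0.980, 1.19, 0.709 and 1.09 CPM in OS-LM1. The difference was then 19.1-fold (log2 fold change -4.25 ± 0.14 SE, edgeR adjusted p = 2.71e-20). The order of the lines for these 3 ligands was the same with either kind of construct. SEMA6A and SEMA7A were higher in OS-LM1 with sgNTC18, by 0.55 and 0.65 on the log2 scale, and lower with shPAX8, at -0.81 and -1.88, and all 4 were called by edgeR.

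Among the receptors, PLXNA2 and PLXNA3 were lower in OS-LM1. PLXNA3 had 36.8, 49.3, 34.1 and 42.5 CPM against 151, 239, 193 and 168 CPM with sgNTC18 (log2 fold change -2.21 ± 0.23 SE, edgeR adjusted p = 4.14e-09) and was 12.2-fold lower with shPAX8 (log2 fold change -3.61 ± 0.17 SE, edgeR adjusted p = 2.14e-16). PLXNA2, which binds SEMA6A, had 4.48, 3.87, 3.14 and 3.83 CPM against 14.05, 16.4, 17.6 and 14.4 CPM with sgNTC18, 4.07-fold lower (log2 fold change -2.03 ± 0.16 SE, edgeR adjusted p = 1.27e-11). PLXNB3 was also lower in OS-LM1 with sgNTC18, at 14.6, 21.1, 15.1 and 16.9 CPM against 35.1, 62.4, 44.5 and 44.7 CPM (log2 fold change -1.46 ± 0.22 SE, edgeR adjusted p = 1.79e-06). PLXND1 stood higher in OS-LM1 with sgNTC18, at 77.3, 64.97, 70.2 and 74.5 CPM against 28.9, 34.7, 33.9 and 30.9 CPM (log2 fold change 1.16 ± 0.13 SE, edgeR adjusted p = 2.26e-08). With shPAX8 its value was -0.41, called, and 0.16 with the GC trend removed, which is the opposite direction. PLXNB2 was called lower in OS-LM1 with sgNTC18 (-0.44) and turned to 0.13, not called, with the trend removed. Its call was also lost without any of 786-M1A sgNTC18 replicates 2 and 3 and OS-LM1 sgNTC18 replicates 2, 3 and 4. Transcript GC content correlated with the line difference at a Spearman rho of -0.245 with sgNTC18 and -0.202 with shPAX8, across 14083 genes.

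The neuropilins divided the lines. NRP1 had 461, 443, 479 and 478 CPM in OS-LM1 and 174, 136, 156 and 152 CPM in 786-M1A with sgNTC18, 3.01-fold higher (log2 fold change 1.59 ± 0.10 SE, edgeR adjusted p = 3.26e-13). NRP2 had 95.2, 77.5, 91.1 and 81.3 CPM in OS-LM1 and 245, 225, 239 and 218 CPM in 786-M1A, 2.69-fold lower (log2 fold change -1.43 ± 0.087 SE, edgeR adjusted p = 7.84e-14). With shPAX8 the differences were 0.73 for NRP1 and -2.17 for NRP2 on the log2 scale, both called. Neither co-receptor overlapped between the lines with sgNTC18, and removing the GC trend kept all 4 calls.

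**Figure D4:**
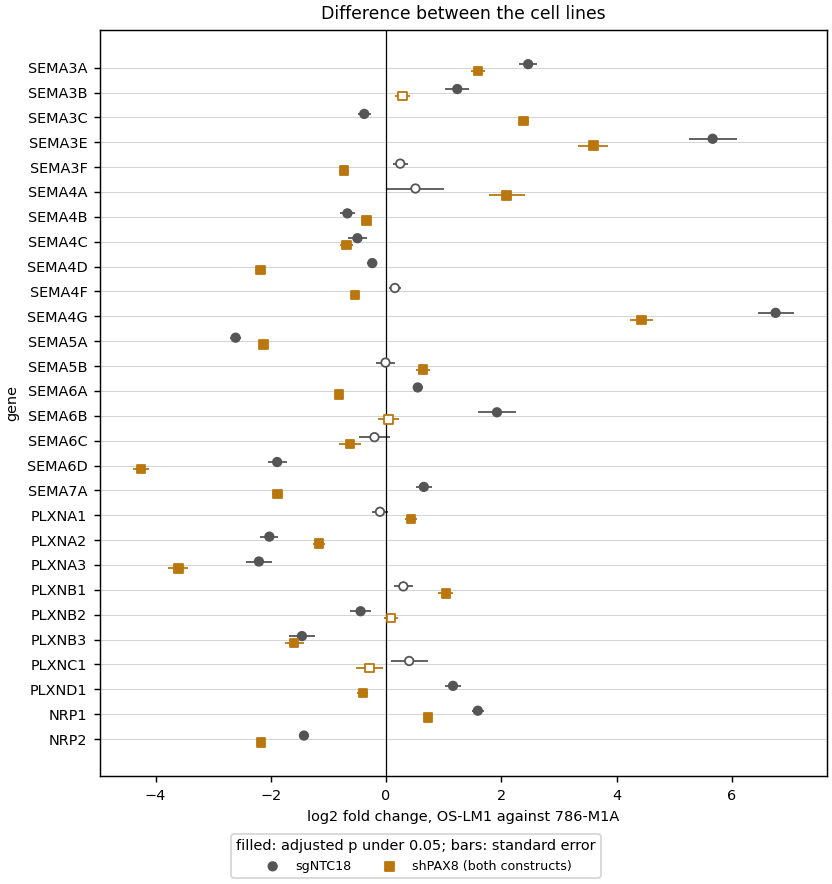
Log2 fold change of each tested member between OS-LM1 and 786-M1A in the sgNTC18 libraries (circles) and in the shPAX8 libraries (squares), with standard errors. SEMA4G and SEMA3E lie farthest to the right in both, NRP1 and NRP2 lie on opposite sides of 0, and SEMA3C, SEMA6A, SEMA7A and PLXND1 lie on opposite sides of 0 between the kinds of construct.

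Against sgNTC18, 22 members were called with shPAX8-1 and 19 with shPAX8-2 in 786-M1A, where 69.5% and 62.4% of all genes were called. In OS-LM1 23 and 18 were called, against 67% and 63.5%. Higher members outnumbered lower ones in 786-M1A (13 to 9 and 14 to 5), and lower ones outnumbered higher ones in OS-LM1 (15 to 8 and 11 to 7). After removal of the GC trend the split of higher to lower was 15 to 9 and 15 to 6 in 786-M1A and 11 to 13 and 13 to 10 in OS-LM1, so the majority turned for shPAX8-2 in OS-LM1. All genes split evenly, with 34.9% higher and 34.6% lower for shPAX8-1 and 30.8% and 31.5% for shPAX8-2 in 786-M1A, and 34% and 32.9%, then 31.4% and 32.1%, in OS-LM1. Both constructs of a line share its sgNTC18 libraries, so their values are given side by side and not as separate evidence. Called in all 4 comparisons were PLXNB1 and SEMA6A as lower and PLXNA2, SEMA3B, SEMA4C and SEMA5A as higher. Without replicates 1 and 2 of 786-M1A shPAX8-1, PLXNA2 (0.30) and SEMA4C (0.21) were no longer called there. Without its replicates 3 and 4, SEMA4F (-0.19) and SEMA6D (0.40) were not called. The other calls of that comparison held without either pair, with SEMA6A at -2.86 and -2.67 and PLXNB1 at -2.76 and -1.98.

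SEMA6A, a membrane ligand of PLXNA2 and PLXNA4, had the lowest values against sgNTC18. In 786-M1A its libraries had 139.9, 139.6, 160.0 and 146 CPM with sgNTC18, 22.5, 22.4, 19.7 and 19.996 CPM with shPAX8-1 and 34.3, 33.99, 31.7 and 27.7 CPM with shPAX8-2. In OS-LM1 they had 224, 222, 210.4 and 199.5 CPM with sgNTC18, 14.1, 14.2, 15.6 and 15.6 CPM with shPAX8-1 and 15.4, 16.3, 14.5 and 12.8 CPM with shPAX8-2. Every library with shPAX8 lay far under every library with sgNTC18. The fold was 6.91 with shPAX8-1 (log2 fold change -2.79 ± 0.096 SE, edgeR adjusted p = 1.70e-18) and 4.58 with shPAX8-2 in 786-M1A (log2 fold change -2.19 ± 0.093 SE, edgeR adjusted p = 1.76e-16). In OS-LM1 it was 14.4 (log2 fold change -3.85 ± 0.10 SE, edgeR adjusted p = 9.15e-21) and 14.6 (log2 fold change -3.87 ± 0.10 SE, edgeR adjusted p = 6.32e-21). With the GC trend removed the log2 values were -2.78, -2.20, -3.85 and -3.86. The line difference was called (log2 fold change -1.36 ± 0.11 SE, edgeR adjusted p = 7.13e-11), with the larger fold in the line in which PAX8 stayed higher. Whether the fold of SEMA6A is related to the level of PAX8 was not tested.

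PLXNB1, the receptor of SEMA4D, was the plexin with the lowest values. It had 24.6, 36.2, 27.9 and 24.9 CPM with sgNTC18, 7.74, 6.31, 4.51 and 3.76 CPM with shPAX8-1 and 10.9, 10.8, 9.28 and 9.53 CPM with shPAX8-2 in 786-M1A. In OS-LM1 it had 35.6, 37.5, 30.5 and 35.9 CPM with sgNTC18, 11.3, 16.6, 11.6 and 12.1 CPM with shPAX8-1 and 20.99, 14.1, 22.4 and 16.9 CPM with shPAX8-2. No library with shPAX8 reached the range of sgNTC18 in either line. The log2 fold changes were -2.34 and -1.48 in 786-M1A and -1.44 and -0.90 in OS-LM1, each called by edgeR with an adjusted p of at most 5.24e-05. With the GC trend removed they were -1.62, -1.26, -0.88 and -0.49, all called. PLXNB2 had 463, 657, 611 and 494 CPM with sgNTC18 in 786-M1A and 465, 382, 395 and 394 CPM in OS-LM1. It fell with shPAX8-1 in both lines (-1.69 and -0.73), and in OS-LM1 its value with the trend removed was -0.16, not called. PLXNB2 was also called lower with shPAX8-2 in 786-M1A, but not in OS-LM1. That call was lost without any of sgNTC18 replicates 2 and 3 and shPAX8-2 replicate 3 of 786-M1A, with values from -0.44 to -0.38.

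SEMA3B, a secreted ligand whose gene is in a region of chromosome 3 known for tumour suppressors, was higher with both constructs in both lines. It had 2.79, 4.64, 2.75 and 4.303 CPM with sgNTC18, 20.8, 19.4, 12.1 and 15.2 CPM with shPAX8-1 and 23.6, 23.5, 18.2 and 25.99 CPM with shPAX8-2 in 786-M1A. The OS-LM1 libraries had 7.63, 9.81, 6.84 and 9.400 CPM with sgNTC18, 21.7, 29.2, 25.8 and 23.1 CPM with shPAX8-1 and 24.2, 16.8, 31.1 and 19.2 CPM with shPAX8-2. The groups with shPAX8 stood above those with sgNTC18 without overlap. The largest of the 4 values was 6.39-fold (log2 fold change 2.68 ± 0.21 SE, edgeR adjusted p = 4.29e-11) and the smallest 2.72-fold (log2 fold change 1.44 ± 0.19 SE, edgeR adjusted p = 3.91e-07). After removal of the trend these became 2.95 and 1.86. SEMA5A had 209, 211, 228 and 217 CPM with shPAX8-1 and 182, 172, 200.4 and 166 CPM with shPAX8-2 in 786-M1A. It had 53.8, 46.4, 48.97 and 49.4 CPM with shPAX8-1 and 42.5, 43.9, 43.6 and 34.7 CPM with shPAX8-2 in OS-LM1, where the log2 values against sgNTC18 were 1.29 and 1.02. PLXNA2 had 27.8, 31.7, 19.9 and 18.2 CPM and 20.4, 22.8, 20.2 and 21.1 CPM in 786-M1A, shPAX8-1 first, and 7.73, 8.78, 8.11 and 8.99 CPM and 12.3, 9.73, 13.9 and 12.7 CPM in OS-LM1, all above the sgNTC18 libraries of the same line. The log2 values of PLXNA2 ran from 0.44 to 1.67 and those of SEMA4C, a ligand of PLXNB2, from 0.43 to 0.81. The SEMA4C call with shPAX8-1 in OS-LM1 was lost without any of sgNTC18 replicates 3 and 4 and shPAX8-1 replicate 2.

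For 8 members the calls went both ways, and SEMA3C and SEMA7A were the clearest. SEMA3C had 229.8, 173, 200.1 and 192 CPM with sgNTC18 in 786-M1A and 145, 144, 167 and 156 CPM in OS-LM1. Against these, its shPAX8 levels given above were lower in 786-M1A (log2 fold change -1.38 ± 0.12 SE, edgeR adjusted p = 7.30e-11 with shPAX8-1 and log2 fold change -2.15 ± 0.12 SE, edgeR adjusted p = 5.29e-14 with shPAX8-2). In OS-LM1 they were higher (log2 fold change 1.29 ± 0.12 SE, edgeR adjusted p = 2.69e-10 and log2 fold change 0.72 ± 0.12 SE, edgeR adjusted p = 5.40e-06). After removal of the trend the 4 values were -1.99, -2.27, 0.84 and 0.35, all called. The line difference of SEMA3C was the highest of all members (log2 fold change 2.77 ± 0.14 SE, edgeR adjusted p = 1.18e-14).

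SEMA7A, a lipid-anchored ligand of PLXNC1 and integrins, showed the reverse. In 786-M1A it had 21.4, 25.6, 27.2 and 23.6 CPM with sgNTC18, 76.9, 68.8, 63.2 and 56.6 CPM with shPAX8-1 and 59.2, 64.2, 49.6 and 60.8 CPM with shPAX8-2. The OS-LM1 libraries had 47.2, 30.9, 40.98 and 34.9 CPM with sgNTC18, 16.2, 20.3, 16.3 and 18.6 CPM with shPAX8-1 and 14.2, 13.6, 19.1 and 16.7 CPM with shPAX8-2. It was thus higher in 786-M1A and lower in OS-LM1, with no overlap in either line, and its line difference was the lowest of all members (log2 fold change -2.54 ± 0.17 SE, edgeR adjusted p = 1.24e-12). After removal of the trend the SEMA7A values moved from 1.44 to 2.11 with shPAX8-1 in 786-M1A and from -1.11 to -0.58 in OS-LM1, all called. SEMA4D, at 41.6, 42.1, 43.3 and 42.9 CPM with sgNTC18 in 786-M1A, was called higher there with shPAX8-2 (0.69) and lower with both constructs in OS-LM1, from 39.6, 34.2, 35.8 and 34.3 CPM with sgNTC18 to 10.3, 12.1, 10.96 and 10.1 CPM and 14.97, 13.97, 14.2 and 13.4 CPM. SEMA6D changed likewise, by 0.41 and 0.94 in 786-M1A and -1.91 and -1.46 in OS-LM1. Its value with shPAX8-1 in 786-M1A was not called with the GC trend removed (0.088) nor without any of sgNTC18 replicate 3 and shPAX8-1 replicates 1 and 4. The others were NRP1, PLXNA3, SEMA3F and SEMA4G, and SEMA3F turned from -0.50 to 0.057, not called, with shPAX8-1 in OS-LM1 when the trend was removed.

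PLXND1 and NRP2 changed in 786-M1A more than in OS-LM1. PLXND1 had 124, 113, 79.2 and 75.1 CPM with shPAX8-1 and 132, 139, 117 and 117 CPM with shPAX8-2 in 786-M1A, all above the highest sgNTC18 library at 34.7 CPM. The OS-LM1 libraries had 70.1, 75.7, 71.1 and 73.2 CPM with shPAX8-1, within the range of sgNTC18, and 94.05, 81.8, 118 and 93.5 CPM with shPAX8-2. Its line difference was called (log2 fold change -1.57 ± 0.16 SE, edgeR adjusted p = 6.05e-09), as was that of NRP2 (-0.75). NRP2 was 2.77-fold higher with shPAX8-1 in 786-M1A (log2 fold change 1.47 ± 0.087 SE, edgeR adjusted p = 4.94e-14), and 0.36 with shPAX8-2 on the log2 scale. In OS-LM1 its values were 0.22, called, and 0.12, not called. The first was lost without any of sgNTC18 replicates 2 and 4 and shPAX8-1 replicates 2 and 3. NRP1 was lower with both constructs in OS-LM1, at 300.2, 348, 308 and 293 CPM and 299.6, 286, 277 and 264 CPM, all under the lowest sgNTC18 library at 443 CPM.

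SEMA5B, PLXNA1 and PLXNB3 were lower with shPAX8-1 than with sgNTC18 in both lines. PLXNB3 was called lower in 3 of the 4 comparisons with sgNTC18. With shPAX8-2 in OS-LM1 it had 9.59, 7.46, 13.9 and 10.8 CPM, against 14.6, 21.1, 15.1 and 16.9 CPM with sgNTC18. In 786-M1A its libraries with shPAX8-2 overlapped those with sgNTC18. SEMA5B had 30.8, 34.2, 35.5 and 33.6 CPM with sgNTC18 in 786-M1A and 35.98, 33.4, 30.7 and 33.1 CPM in OS-LM1, all above the highest library with shPAX8-1 of the same line. Its log2 values were -1.82 and -1.08 with shPAX8-1 and -0.43 and 0.13 with shPAX8-2, the last not called. After removal of the trend the last was 0.54 and called. The -0.43 was lost without any of 786-M1A sgNTC18 replicates 2, 3 and 4 and shPAX8-2 replicates 3 and 4. PLXNA1 had 95.4, 120.3, 116 and 94.8 CPM with sgNTC18 in 786-M1A and 111, 97.1, 95.2 and 92.4 CPM in OS-LM1, and its value with shPAX8-1 in OS-LM1 went from -0.61 to -0.051, not called, with the trend removed. PLXNA3 was higher with shPAX8-2 in 786-M1A (1.12) and lower in OS-LM1, where its call with shPAX8-2 (-0.55) was lost without any of sgNTC18 replicates 2 and 4 and shPAX8-2 replicates 2 and 4. GC content correlated with these comparisons at a Spearman rho of -0.334 and -0.0759 in 786-M1A and -0.320 and -0.277 in OS-LM1, with shPAX8-1 first, across 14083 genes.

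Between the lines, the response to shPAX8 (mean of both constructs, against sgNTC18) differed for 23 of the 28 members, 8 upward and 15 downward in OS-LM1 relative to 786-M1A, against 58.7% of all genes (29.9% upward and 28.8% downward). The split among semaphorins was 4 upward and 11 downward, with a median of -0.91 on the log2 scale against 0.00363 over all genes. Among the plexins it was 4 upward and 2 downward. The call of PLXNB2 (0.53) was lost without any of 9 single libraries, which were sgNTC18 replicates 2 and 3, shPAX8-1 replicate 3 and shPAX8-2 replicate 3 of 786-M1A and sgNTC18 replicates 2, 3 and 4, shPAX8-1 replicate 2 and shPAX8-2 replicate 3 of OS-LM1, and without 786-M1A shPAX8-1 replicates 3 and 4 together (0.30). That of SEMA4A, a ligand at up to 1.42 CPM, was lost without any of 786-M1A sgNTC18 replicates 2 and 3 and OS-LM1 sgNTC18 replicate 4. Removal of the GC trend gave 9 members upward and 15 downward.

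**Figure D5:**
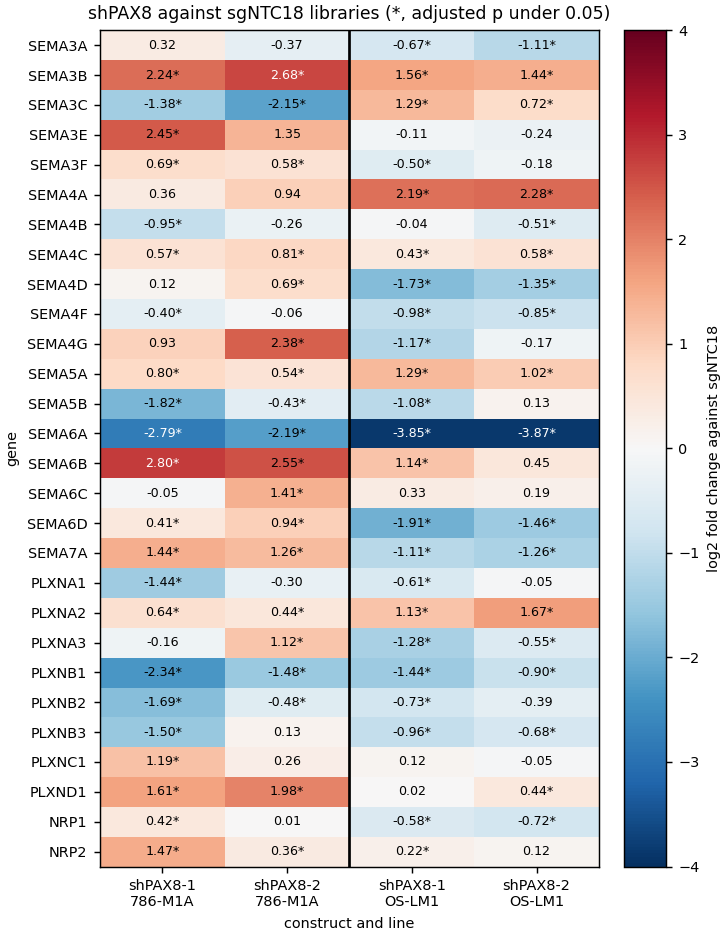
Log2 fold change of each tested member with shPAX8-1 and shPAX8-2 against sgNTC18 in 786-M1A (left pair) and OS-LM1 (right pair), where an asterisk marks an adjusted p under 0.05. SEMA6A and PLXNB1 are blue in all 4 columns, SEMA3B is red in all 4, and SEMA3C, SEMA6D and SEMA7A change colour between the lines.

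SEMA6C had 2.01, 3.15, 2.17 and 1.58 CPM with sgNTC18 in 786-M1A and was higher there with shPAX8-2 only (log2 fold change 1.41 ± 0.27 SE, edgeR adjusted p = 5.33e-05). The OS-LM1 libraries had 1.94, 2.43, 1.56 and 1.75 CPM with sgNTC18, 2.19, 2.91, 2.09 and 2.47 CPM with shPAX8-1 and 1.82, 1.07, 2.92 and 2.59 CPM with shPAX8-2, with overlap. NRP1 in 786-M1A had 179, 188, 238 and 219 CPM with shPAX8-1, called higher than sgNTC18 (0.42) but not with the GC trend removed (0.15), and 145, 130.1, 173 and 172 CPM with shPAX8-2.

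The 7 tested members not described by library (PLXNC1, SEMA3F, SEMA4A, SEMA4B, SEMA4C, SEMA4F and SEMA6B) differed by less than 2-fold between any called pair of groups or stayed under 5 CPM, with SEMA4B given above for its opposite directions. SEMA6B reached at most 2.91 CPM and was higher with shPAX8-1 than with sgNTC18 in both lines (2.80 and 1.14). It was called higher in 3 of the 4 comparisons with sgNTC18. With shPAX8-2 in 786-M1A it had 1.76, 2.16, 1.57 and 1.73 CPM, against 0.288, 0.553, 0.259 and 0.176 CPM with sgNTC18. PLXNC1, the receptor of SEMA7A, stayed at most at 2.26 CPM. Its call between the constructs in 786-M1A (0.92) was lost without any of shPAX8-1 replicates 2 and 4 and shPAX8-2 replicates 1 and 2, and it and that of SEMA4F were lost without shPAX8-1 replicates 3 and 4 together (0.74 and -0.16).

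Of the other genes of the pathway, a list of 12 co-receptors, 4 proteases that process semaphorins and 36 effectors, 50 of 52 were tested. Between the constructs 10 were higher and 18 lower in 786-M1A, and 2 were higher and 16 lower in OS-LM1. These were 56% and 36% of the 50, against 48.1% and 23.1% of all genes. Calls and values of these 50 genes are given on the counts as deposited, without removal of the GC trend. FURIN, the protease that cleaves class 3 semaphorins, was lower with shPAX8-1 in both lines, with a mean of 19.2 against 75.98 CPM in 786-M1A (log2 fold change -1.98 ± 0.14 SE, edgeR adjusted p = 6.17e-11) and 46.6 against 91.6 CPM in OS-LM1 (log2 fold change -0.98 ± 0.14 SE, edgeR adjusted p = 5.86e-06). RND3, of the Rnd family of small GTPases, some of which bind plexins, was higher with shPAX8-1 in 786-M1A, at 268 against 59.96 CPM (log2 fold change 2.16 ± 0.15 SE, edgeR adjusted p = 4.10e-11). L1CAM, a partner of NRP1 in the response to SEMA3A, was lower in OS-LM1, at 8.999 against 21.8 CPM (log2 fold change -1.29 ± 0.15 SE, edgeR adjusted p = 6.46e-07). The largest called change there was that of ITGA1, at 42.1 against 113 CPM (log2 fold change -1.42 ± 0.12 SE, edgeR adjusted p = 3.41e-09).

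Against sgNTC18, 18 of these 50 genes were higher and 18 lower with shPAX8-1 in 786-M1A, and 19 and 14 with shPAX8-2. In OS-LM1 17 were higher and 14 lower with shPAX8-1, and 20 and 8 with shPAX8-2. The shares called, 72%, 66%, 62% and 56%, lay near the 69.5%, 62.4%, 67% and 63.5% of all genes. DPYSL3, a collapsin response mediator that acts downstream of class 3 semaphorins, had a mean of 533 CPM with sgNTC18, 42.996 CPM with shPAX8-1 and 52.2 CPM with shPAX8-2 in OS-LM1 (log2 fold change -3.63 ± 0.077 SE, edgeR adjusted p = 7.83e-23 and log2 fold change -3.35 ± 0.076 SE, edgeR adjusted p = 6.01e-22). It was also lower with shPAX8-2 in 786-M1A, at 121 against 495 CPM (log2 fold change -2.03 ± 0.072 SE, edgeR adjusted p = 4.11e-18). With shPAX8-1 in 786-M1A DPYSL3 was low as well, at 1906, 2413, 1874 and 1912 counts against 12035, 8915, 15996 and 10842 counts with sgNTC18. Depth there was 16421429 to 19928571 with shPAX8-1 and 17808799 to 31140267 with sgNTC18. FYN, a kinase that acts on plexins of class A, was higher in 786-M1A with both constructs, at 23.9 and 18.5 CPM against 2.19 CPM (log2 fold change 3.42 ± 0.15 SE, edgeR adjusted p = 1.41e-16 and log2 fold change 3.05 ± 0.15 SE, edgeR adjusted p = 3.12e-15). In OS-LM1 FYN had 490, 357, 516 and 402 counts with sgNTC18. With shPAX8-1 it had 942, 895, 1150 and 1245 counts there, in libraries of lower depth. With shPAX8-2 FYN had 468, 583, 1802 and 1218 counts in OS-LM1, at depths of 14567945, 17928129, 52059375 and 33555410. Depth with sgNTC18 there was 32918698 to 37086335. Between the lines 19 were higher and 12 lower in OS-LM1 with sgNTC18, and 29 and 15 with shPAX8, or 62% and 88% against 63% and 83.1% of all genes. NRCAM, an adhesion molecule of the L1 family that joins NRP2, had a mean of 124 CPM in OS-LM1 and 3.69 CPM in 786-M1A with sgNTC18 (log2 fold change 5.06 ± 0.15 SE, edgeR adjusted p = 3.24e-20). DPYSL4 had a mean of 50.99 CPM with sgNTC18 and 13.9 CPM with shPAX8 in 786-M1A, and 0 to 2 counts per library in OS-LM1.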

How the data were processed

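RNA was measured in 24 libraries, 4 for each of 3 constructs in each of 2 lines. The authors mapped reads to hg38 with Bowtie2 and RSEM, per the labels, and the version of RSEM is not given in the sources used here. The sources differ on the library kit, which is KAPA stranded mRNA in the labels and Lexogen in the methods. The deposited files hold expected counts and TPM for 26475 genes per library. The deposited TPM values were used for levels between genes only.

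Expected counts were rounded. Low genes were removed with filterByExpr, which left 15665, libraries were scaled by TMM, and 10 comparisons were drawn from 1 fit of 6 groups with the robust quasi-likelihood test of edgeR 4.0.16 (R 4.3.3), with Benjamini-Hochberg adjustment over all genes tested and a call at an adjusted p under 0.05. CPM use the TMM-scaled library size. The procedure was tested on simulated data. Every pair of replicates differed by more than sampling noise. Alternatives were DESeq2 1.42.0, its size factors, no filter, each line alone, the shPAX8 libraries alone, a replicate block, subtraction of the trend with GC content in each library (spline, 5 degrees of freedom), both together, a stricter adjusted p of 0.01, a minimum change of 0.58 on the log2 scale and the omission of single libraries or of a pair in 786-M1A shPAX8-1. Values in every library were to be given for members called at an absolute log2 fold change of at least 1 with a group mean of at least 5 CPM, which named 21. From the other pathway genes the 3 largest called changes per comparison were taken, and the text gives only some of these. The members and lists were chosen with earlier results of these data known.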

Additional observations from a re-analysis of the deposited data

Results flagged for a closer look

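In 5 of 126 groups of 4 libraries, 1 library stood apart from the other 3 by Dixon's criterion, where chance gives about 1 in 20, or 6.3. The highest library was OS-LM1 shPAX8-1 replicate 2 for PLXNB1 (16.6 CPM), OS-LM1 sgNTC18 replicate 1 for PLXNB2 (465 CPM), 786-M1A sgNTC18 replicate 1 for SEMA3A (5.55 CPM) and 786-M1A shPAX8-1 replicate 1 for SEMA4D (51.2 CPM). The lowest was OS-LM1 shPAX8-2 replicate 4 for SEMA5A (34.7 CPM).

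The difference between the constructs was itself different between the lines, by the interaction term of edgeR, for 7 of the members described by library. As OS-LM1 minus 786-M1A on the log2 scale, the values were -1.01 for NRP2, -0.75 for PLXNA2, 0.58 for PLXNA1, 0.88 for PLXNB2, 1.35 for PLXNB3, 0.61 for SEMA6A and 1.60 for SEMA6C.

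The response to shPAX8 against sgNTC18 differed between the lines for 19 of them. Among the receptors and co-receptors the values were -0.86 for NRP1, -0.75 for NRP2, 0.54 for PLXNA1, 0.86 for PLXNA2, -1.40 for PLXNA3, 0.74 for PLXNB1, 0.53 for PLXNB2 and -1.57 for PLXND1. Among the secreted ligands they were -0.87 for SEMA3A, -0.95 for SEMA3B, 2.77 for SEMA3C and -2.07 for SEMA3E. Among the membrane ligands they were -1.94 for SEMA4D, -2.33 for SEMA4G, 0.49 for SEMA5A, 0.65 for SEMA5B, -1.36 for SEMA6A, -2.36 for SEMA6D and -2.54 for SEMA7A. PAX8 itself also responded differently in the lines, and its part in these differences was not tested.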

How the results depend on the processing

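Of 219 values of called members and pathway genes, 215 to 218 kept direction and call with DESeq2's size factors, DESeq2's own test, no filter or the replicate block, and 201 with the GC trend removed. With that trend removed, 5 turned direction, and their log2 values without and with the replicate block in the same fit were 0.13 and 0.13 for PLXNB2 between the lines with sgNTC18, 0.16 and 0.16 for PLXND1 and 0.14 and 0.14 for SEMA4B between the lines with shPAX8, 0.15 and 0.15 for PLXND1 between the constructs in 786-M1A, and 0.057 and 0.057 for SEMA3F with shPAX8-1 against sgNTC18 in OS-LM1. The cause was not tested. With the trend removed, calls in one direction moved by over 1.5 times for the lines, where higher members went from 9 to 14 with either kind of construct, for shPAX8-2 against sgNTC18 in OS-LM1, from 7 to 13 higher, and for the line difference of the constructs, from 2 to 5 downward. Total counts of members called, both directions together, stayed within 1.5 times, apart from the following. Between the constructs in OS-LM1 they were 6 at an adjusted p under 0.01 and 3 at an absolute log2 fold change over 0.58. For the line difference of the constructs they were 5 at an adjusted p under 0.01 and 15 without 786-M1A shPAX8-1 replicates 1 and 2, an alternative that leaves 2 libraries in that group. Omission of single libraries gave 2472 values, of which 83 lost the call and 0 turned.

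The labels do not say that replicate numbers pair the samples, and the correlations did not reach 0.1 in every pair. Residuals of 24 same-numbered pairs within a line correlated at 0.0031 on average, from -0.32 to 0.27, against -0.0011 for other pairs, and in 13 of 48 cases the best correlated library had the same number. Between shPAX8-1 and shPAX8-2 in 786-M1A the 4 same-numbered pairs stood at 0.037 to 0.27 (mean 0.17), against a mean of -0.057 for other pairs. With the replicate block, 11 members were called between the constructs in OS-LM1 and 22 for the line difference of shPAX8, and no count moved by over 1.5 times. Depth limits SEMA3E, SEMA4A, SEMA4G, SEMA6B and PLXNC1, which stayed at low counts in some groups.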
